A study of Mus musculus with 12 samples.

Results

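The 40 genes described here encode proteins of mitosis and of the mitotic spindle. They were chosen by name, and a gene was kept where its row had a mean of at least 0.1 FPKM, a level scaled for transcript length and sequencing depth, over 12 mice. All 40 named genes were found among the 17734 genes of the table and all 40 passed this limit, as did 15315 genes in all. The values are bulk RNA levels of rectal samples from 12 male C57BL/6 mice, 8 to 10 weeks old by the study's methods, with 3 mice in each of 4 groups and no genetic alteration in any of them. The groups were normal mice (numbered 1, 3 and 4), normal mice receiving BBR (1, 3 and 4), colitis mice (1, 2 and 4) and colitis mice receiving BBR (2, 3 and 4). Colitis mice had 2.5% dextran sulfate sodium (DSS), a polymer that injures the lining of the bowel, in their drinking water for 7 days. BBR is berberine, a plant alkaloid, and was gavaged daily at 100 mg/kg, over 7 days in the methods and 6 days in the labels. The labels name colorectum and colon as the tissue where the methods name rectum. The comparisons ask how colitis, and BBR in mice with and without colitis, went with the expression of these genes.

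Mitosis genes are largely silent in resting cells and are transcribed together late in the cell cycle, in G2 and M phase. Their promoters commonly carry a cell cycle genes homology region (CHR), at which the MuvB core binds, with other subunits as the repressing DREAM complex in resting cells and with B-Myb and FoxM1 as an activator in dividing cells. A second frequent element is the CCAAT box, the site of the factor NF-Y. In the large bowel, dividing cells sit in the lower part of the crypts, where progenitors of the epithelium amplify before they differentiate, so that RNA of these genes follows how many cells of a sample are in division. Dividing immune and stromal cells carry the same RNAs. In bulk samples, fewer dividing cells and less of these RNAs per dividing cell cannot be told apart.

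Promoter sequences of RefSeq on build GRCm38.p6, from 250 bases before to 50 after the annotated start, were at hand for 34 of the 40 genes by symbol. Where a symbol had several windows, that with the lowest coordinate was used, and matches at other starts were not counted. The study's processing notes name build mm9, so these coordinates belong to the reference and not to the expression table. The genes without a window were Ccna2, Foxm1, Pbk, Aurkb, Tpx2 and Kif20a. The letter patterns searched on both strands were the CHR as TTTGAA or TTCGAA and the CCAAT box as CCAAT. The 180 bases from position -150 to position 29, counting the start itself as 0, are printed for 6 genes to which the results return, 5′ to 3′ on the strand of the gene, with the matched letters in capitals. A match on the opposite strand appears as its complement, ATTGG for CCAAT. Ccnb2, the gene furthest below its control in both comparisons of colitis mice receiving BBR, is at chr9:70421525-70421704, minus strand.
Ccnb2: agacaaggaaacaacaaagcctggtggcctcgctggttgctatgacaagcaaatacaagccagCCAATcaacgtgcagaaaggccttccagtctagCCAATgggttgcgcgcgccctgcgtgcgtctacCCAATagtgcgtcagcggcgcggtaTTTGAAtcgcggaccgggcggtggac
Cdk1, whose window holds a CHR beside a CCAAT box more than once, is at chr10:69352883-69353062, minus strand.
Cdk1: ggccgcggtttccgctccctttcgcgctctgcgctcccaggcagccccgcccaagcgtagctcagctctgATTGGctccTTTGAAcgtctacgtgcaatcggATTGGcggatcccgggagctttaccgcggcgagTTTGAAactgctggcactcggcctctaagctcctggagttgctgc
Cdc20, with the CHR between CCAAT boxes, is at chr4:118437314-118437493, minus strand.
Cdc20: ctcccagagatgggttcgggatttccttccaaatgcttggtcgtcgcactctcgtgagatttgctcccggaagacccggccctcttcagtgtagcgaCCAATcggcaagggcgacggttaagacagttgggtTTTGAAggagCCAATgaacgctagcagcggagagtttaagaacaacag
Kif23, with both matches at the start, is at chr9:61946770-61946949, minus strand.
Kif23: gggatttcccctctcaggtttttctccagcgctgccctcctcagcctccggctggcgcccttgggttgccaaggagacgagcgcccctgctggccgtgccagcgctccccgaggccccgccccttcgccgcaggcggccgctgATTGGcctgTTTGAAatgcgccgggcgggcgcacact
Plk1, the gene whose level was least like that of the others, is at chr7:122159285-122159464, plus strand, and its CHR begins 30 bases after the start, just outside the printed stretch.
Plk1: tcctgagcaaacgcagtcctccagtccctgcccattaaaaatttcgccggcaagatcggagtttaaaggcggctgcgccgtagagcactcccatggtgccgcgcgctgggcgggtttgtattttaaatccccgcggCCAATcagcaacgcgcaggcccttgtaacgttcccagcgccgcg
Birc5, with no match in its window, is at chr11:117849087-117849266, plus strand.
Birc5: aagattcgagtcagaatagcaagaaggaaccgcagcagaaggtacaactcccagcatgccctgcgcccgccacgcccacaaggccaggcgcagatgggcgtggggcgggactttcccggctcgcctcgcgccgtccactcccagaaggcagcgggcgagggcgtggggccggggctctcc

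CHR matches were present in the windows of 27 of the 34 genes (79.4%), against 14.4% of the 12160 tested genes that had a window. CCAAT matches were present in 27 as well (79.4% against 38.4%), and 24 genes held both (70.6% against 5.95%). In 25 genes (73.5%) a CHR began within 50 bases of the start, against 3.72% of tested genes. Top2a held 4 CHR and 6 CCAAT matches, and Ube2c held 6 CCAAT matches. Birc5, Mad2l1, Nuf2 and Nusap1 held neither. Among 69 other mitosis genes with a window 60.9% held a CHR, and among 32 genes of DNA replication and S phase 12.5% did. A match is a stretch of letters and was not tested as a binding site.

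**Figure D1:**
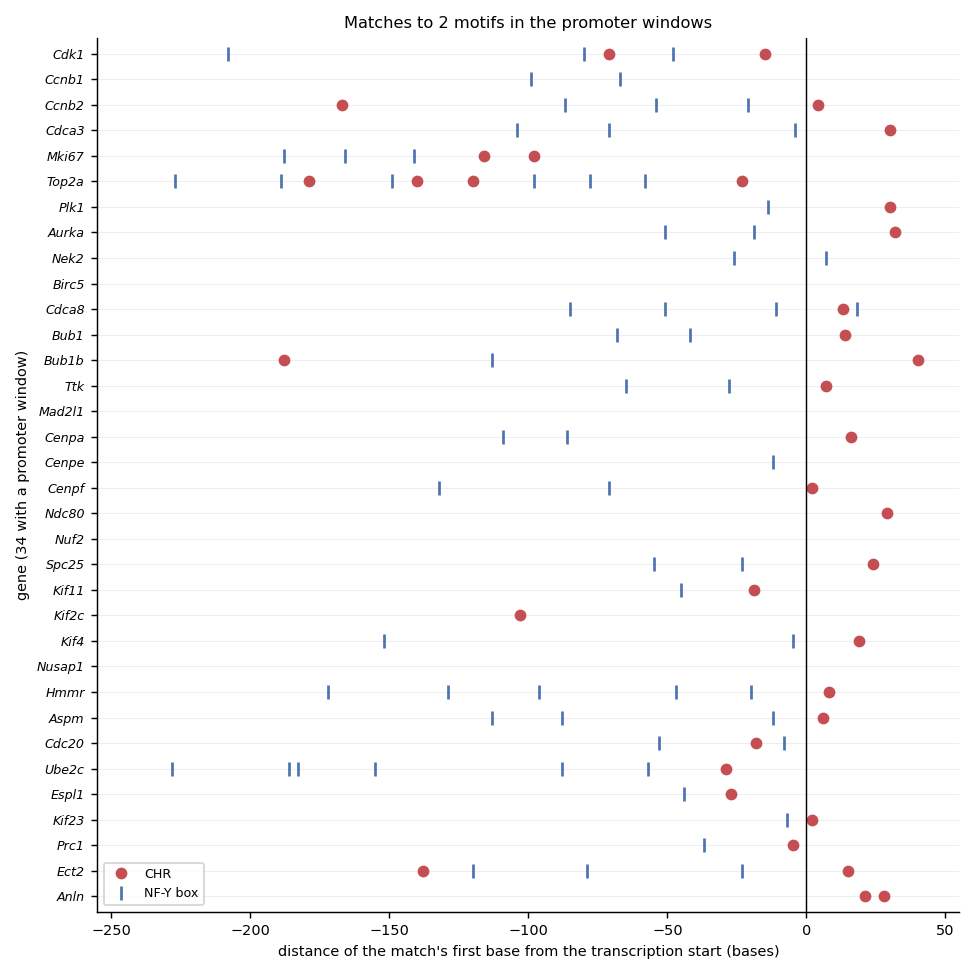
Positions of CHR matches (red points) and NF-Y boxes, the CCAAT matches (blue bars), in the promoter windows of 34 genes, with the distance from the transcription start in bases on the horizontal axis. In 25 genes a CHR begins within 50 bases of the start, and 4 genes hold no match of either kind.

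The mice numbered 4 stood apart in each group. Their columns summed to 482194 to 504337 FPKM with 872 to 1086 genes at 0, against 696286 to 765876 FPKM and 1332 to 1926 genes at 0 in the mice numbered 1 to 3. The table gives no read counts. Judged by the smallest differences among low values, in genes with 1 annotated transcript, 3 reads on a transcript of 2000 bases were worth about 0.123 to 0.133 FPKM in the mice numbered 1 to 3 and 0.075 to 0.0855 FPKM in those numbered 4, which covers counting error only. For the mitosis genes, colitis mouse 2 receiving BBR stood apart as well: all 40 genes were at their lowest of the 12 mice there. In that mouse 10 of them lay under the worth of 3 reads on their longest transcript. These were Ccnb2, Foxm1, Nek2, Bub1, Bub1b, Ttk, Ndc80, Nuf2, Aspm and Espl1. Fold changes and counts of genes by p comparing the group of that mouse with colitis mice are therefore given with and without that mouse. The 8 pan-epithelial markers summed to 6530 to 12890 FPKM in every mouse and the squamous markers to 1.47 to 8.94 FPKM, so that glandular epithelium was present in each sample and squamous epithelium was near 0.

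The 40 genes summed to 442.4, 213.9 and 467.4 FPKM in normal mice 1, 3 and 4, and to 154.2, 228.4 and 106.2 FPKM in normal mice 1, 3 and 4 receiving BBR. Here and below, values of a group are in the order of its mouse numbers. They summed to 204.1, 300.4 and 539.7 FPKM in colitis mice and to 15.2, 196.0 and 132.8 FPKM in colitis mice receiving BBR. Every sum of the mice receiving BBR but that of normal mouse 3 lay below all sums of the mice without BBR, and normal mouse 3 receiving BBR lay above normal mouse 3 and colitis mouse 1 alone. Within normal mice, mouse 3 was lowest for all 40 genes. Colitis mouse 4 had the highest level of the 12 mice for 20 genes and normal mouse 4 for 17.

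**Figure D2:**
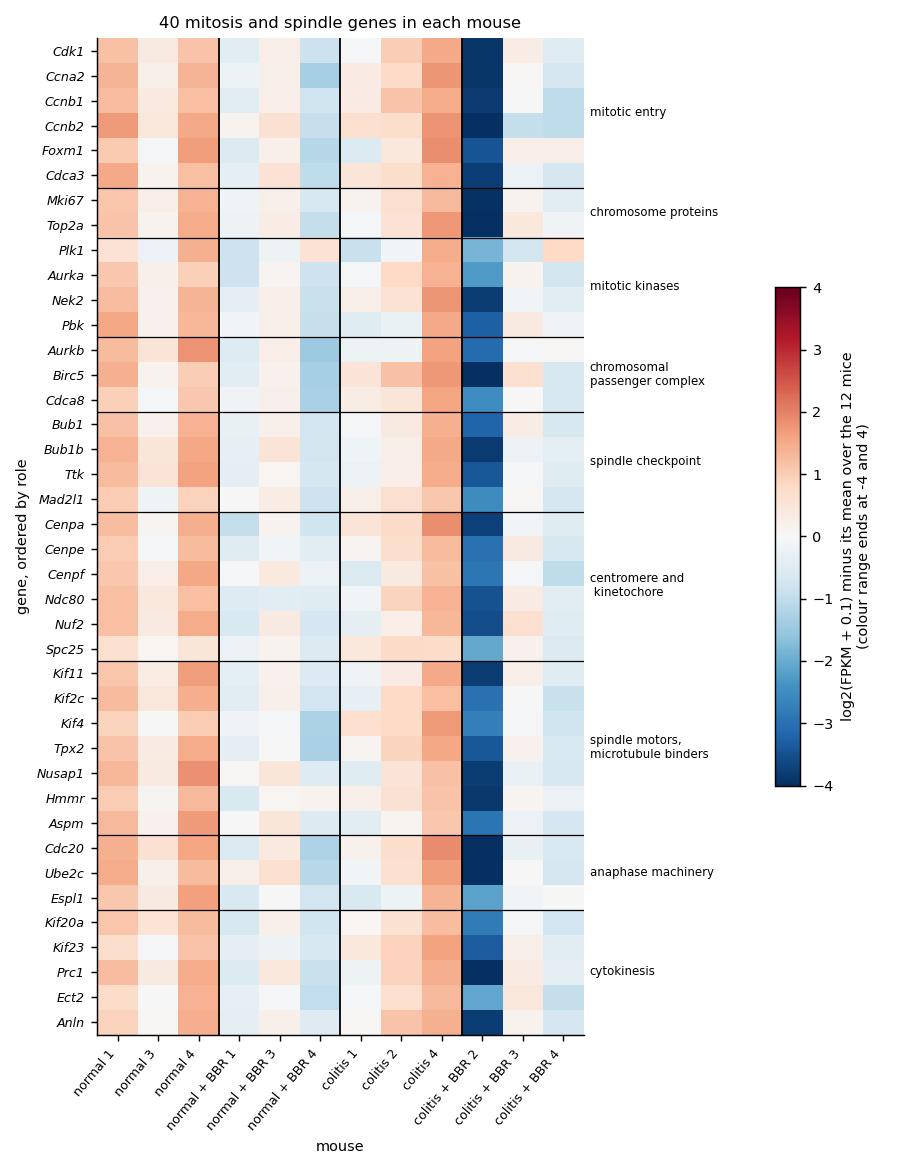
Level of the 40 genes (rows, by role) in each of the 12 mice (columns, by group), as log2(FPKM + 0.1) minus the gene's mean over the 12 mice. The column of colitis mouse 2 receiving BBR holds the lowest value of every row, and normal mice 1 and 4 and colitis mouse 4 hold most of the high values.

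In normal mice, the mitosis genes were lower with BBR without any of them passing the test. All 40 genes had a lower mean log2 level in normal mice receiving BBR than in normal mice, against 54% of all tested genes. The median log2 fold change of log2(FPKM + 0.1) was -1.25 for the 40 genes and -0.02 for all tested genes. Aurkb (-1.76), Cdc20 (-1.67) and Tpx2 (-1.53) were furthest below, and Spc25 (-0.63), Plk1 (-0.76) and Mad2l1 (-0.78) were nearest to 0. The fits of limma, with Benjamini-Hochberg adjustment over the 15315 tested genes, called none of the 40 at the limit of 0.05 (adjusted p = 1 for each), and 0% of all tested genes. Espl1, Kif20a and Aurka reached an unadjusted p up to 0.05 (0.0447, 0.0398 and 0.0492), against 0.842% of tested genes in this direction. In 17 of the 40 genes all 3 normal mice receiving BBR lay below all 3 normal mice, against 5.46% of tested genes. With 3 mice against 3, the smallest p that exact permutation (both tails) allows is 0.1, which these 17 genes reached. The number with an unadjusted p up to 0.05 moved with 1 mouse of another group, since all groups share the estimate of the spread: without colitis mouse 2 receiving BBR it was 34 of 40, against 1.46% of tested genes, with no adjusted call. Leaving out any of normal mice 1 and 4 or of normal mice 1 and 4 receiving BBR gave 0, against 0.34% to 0.692% of tested genes. Leaving out colitis mouse 2 gave 1 (0.842%), leaving out normal mouse 3 gave 6 (0.855%) and leaving out colitis mouse 3 receiving BBR gave 7 (0.953%). All 40 genes were lower in each of these fits. With the mouse number as a block, 7 of the 40 reached that limit, against 1.59% of tested genes, and the median was again -1.25.

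In colitis mice, the 40 genes were also lower with BBR. Their median lay below that of normal mice in the fit of all mice and above it without colitis mouse 2 receiving BBR, and no interaction passed the test. All 40 had a lower mean log2 level in colitis mice receiving BBR than in colitis mice, against 62% of all tested genes, with a median log2 fold change of -1.94 for the 40 genes and -0.09 for all tested genes. Ccnb2 (-3.27), Ccnb1 (-2.60) and Birc5 (-2.59) were furthest below, and Plk1 (-0.77), Espl1 (-0.94) and Pbk (-1.27) were nearest to 0. None passed the adjusted limit in limma (lowest adjusted p = 0.486, for Ccnb2 and Kif4), as was so for 0% of tested genes. An unadjusted p of at most 0.05 was found for 33 of the 40, against 5.2% of tested genes in this direction. In 16 of the 40 all 3 colitis mice receiving BBR lay below all 3 colitis mice, against 5.66% of tested genes. Without colitis mouse 2 receiving BBR all 40 genes were still lower, the median was -0.87 (all tested genes 52.6% lower), and 10 genes reached an unadjusted p up to 0.05, against 2.46% of tested genes. With the mouse number as a block it was 36, against 8.98%. Leaving out colitis mouse 4 also left 10 (4.39% of tested genes), with a median of -1.56, and leaving out colitis mouse 2 left 19 (4.21%). Leaving out colitis mouse 3 receiving BBR gave the lowest adjusted p of any of these fits for any of the 40, 0.0692.

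**Figure D3:**
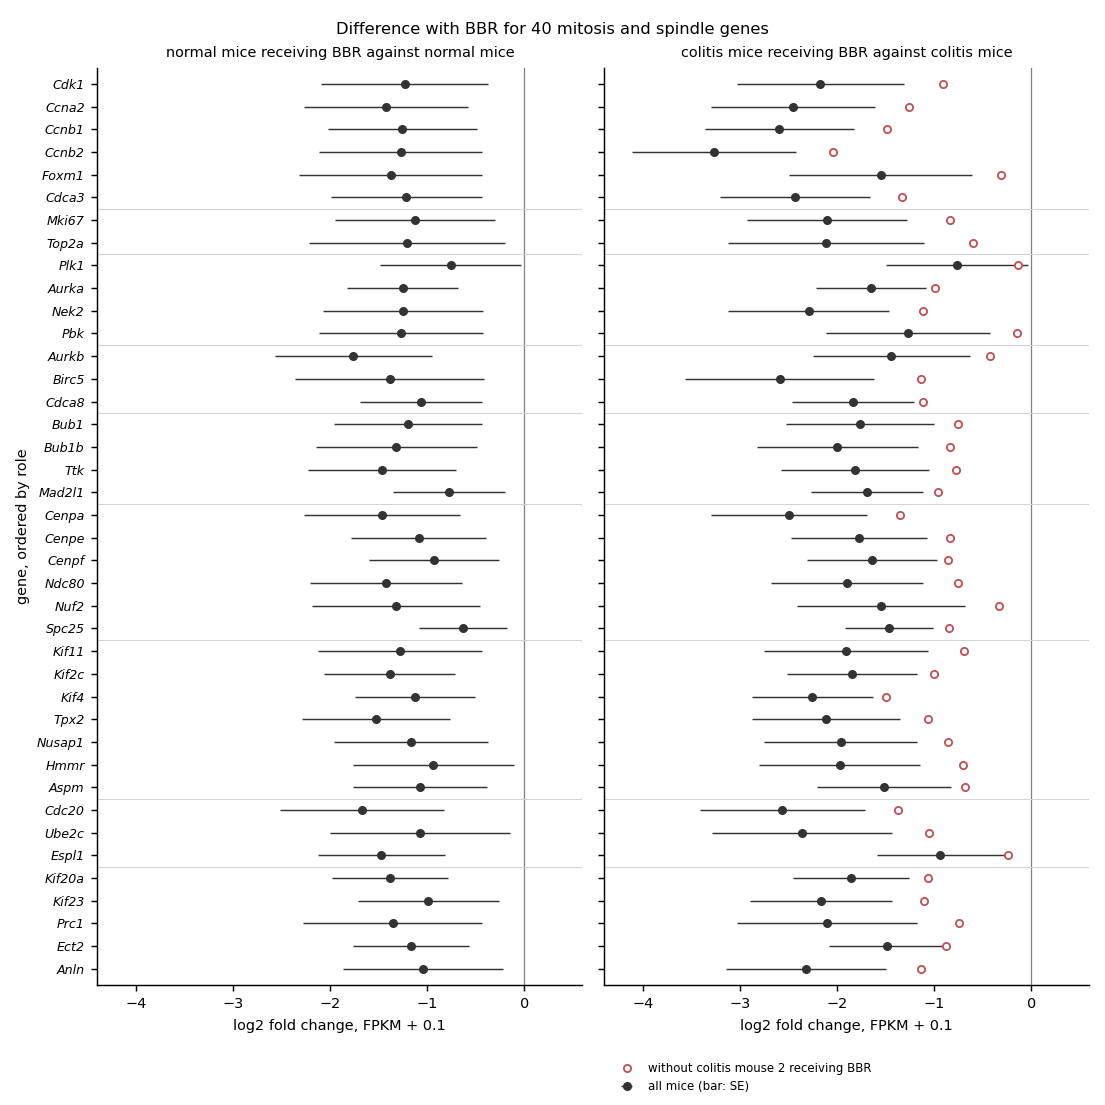
Log2 fold change of FPKM + 0.1 for the 40 genes, ordered by role, in normal mice receiving BBR against normal mice (left) and colitis mice receiving BBR against colitis mice (right). Black points are fits over all 12 mice with bars of 1 SE, open red points leave out colitis mouse 2 receiving BBR, and all points lie below 0.

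Genes of mitotic entry drive the G2 to M transition. Cdk1, the kinase that starts mitosis, was at 5.87, 3.32 and 5.79 FPKM in normal mice, 1.87, 3.12 and 1.37 in normal mice given BBR, 2.48, 5.11 and 7.46 in colitis mice, with 0.08, 3.14 and 1.80 in colitis mice receiving BBR. Ccnb1, its cyclin B1 partner, was at 11.85, 6.65 and 11.8 FPKM in normal mice, 3.74, 6.06 and 2.87 with BBR, 6.28, 11.2 and 14.35 in colitis mice, with 0.26, 5.13 and 2.41 in colitis mice receiving BBR. For Ccnb1 neither pair of groups overlapped, while for Cdk1 colitis mouse 1 lay below colitis mouse 3 receiving BBR. Ccnb2, which encodes cyclin B2, was at 21.2, 8.83 and 18.7 FPKM in normal mice, 7.13, 10 and 3.37 with BBR, 10.1, 10.7 and 22.8 in colitis mice, with 0.16, 3.26 and 3.13 in colitis mice receiving BBR. All 3 colitis mice receiving BBR were lower in Ccnb2 than every other mouse, and Ccnb2 differed from colitis mice by -3.27 ± 0.84 (SE) on the log2 scale, or by -2.05 without mouse 2. For Ccnb1 that difference was -2.60 ± 0.77 (SE) and for Cdk1 -2.17 ± 0.86, or -1.48 and -0.91 without mouse 2. Foxm1, the transcription factor of the G2 and M program, was at 2.83, 1.23 and 4.42 FPKM in normal mice, 0.87, 1.52 and 0.54 with BBR, 0.87, 1.81 and 4.97 in colitis mice, with 0.03, 1.61 and 1.58 in colitis mice receiving BBR. Foxm1 overlapped between groups in both comparisons, with log2 fold changes of -1.38 ± 0.94 (SE) in normal mice and -1.55 ± 0.94 in colitis mice, the latter -0.32 without mouse 2. Ccna2, which encodes cyclin A2, and Cdca3, which promotes mitotic entry, had log2 fold changes of -1.43 and -1.22 in normal mice and of -2.46 and -2.44 in colitis mice, the latter -1.26 and -1.33 without mouse 2.

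Mki67 and Top2a encode proteins of the chromosomes themselves, the surface protein Ki-67 that is used as a marker of dividing cells and the topoisomerase that untangles sister DNA. Mki67 was at 17.3, 9.44 and 20.9 FPKM in normal mice, 7.06, 9.08 and 5 in normal mice given BBR, 8.81, 12.4 and 19.5 in colitis mice, with 0.42, 8.79 and 5.80 in colitis mice receiving BBR. The normal mean of 15.9 ± 5.86 FPKM (SD, n = 3) was 2.25 times the mean of 7.05 ± 2.04 FPKM with BBR, and the colitis mean of 13.6 ± 5.42 FPKM was 2.71 times the mean of 5.0 ± 4.24 FPKM with BBR. Neither pair of groups overlapped for Mki67 (log2 fold changes -1.13 ± 0.83 SE and -2.11 ± 0.83, the latter -0.84 without mouse 2), though only 8.79 and 8.81 FPKM separate colitis mice with and without BBR. Top2a was at 16.0, 8.02 and 20.5 FPKM in normal mice, 6.27, 8.92 and 3.73 with BBR, 6.87, 10.9 and 24.7 in colitis mice, with 0.25, 9.88 and 6.62 in colitis mice receiving BBR. Its groups overlapped in both comparisons, with log2 fold changes of -1.20 ± 1.01 (SE) in normal and -2.11 ± 1.01 in colitis mice, the latter -0.60 without mouse 2.

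**Figure D4:**
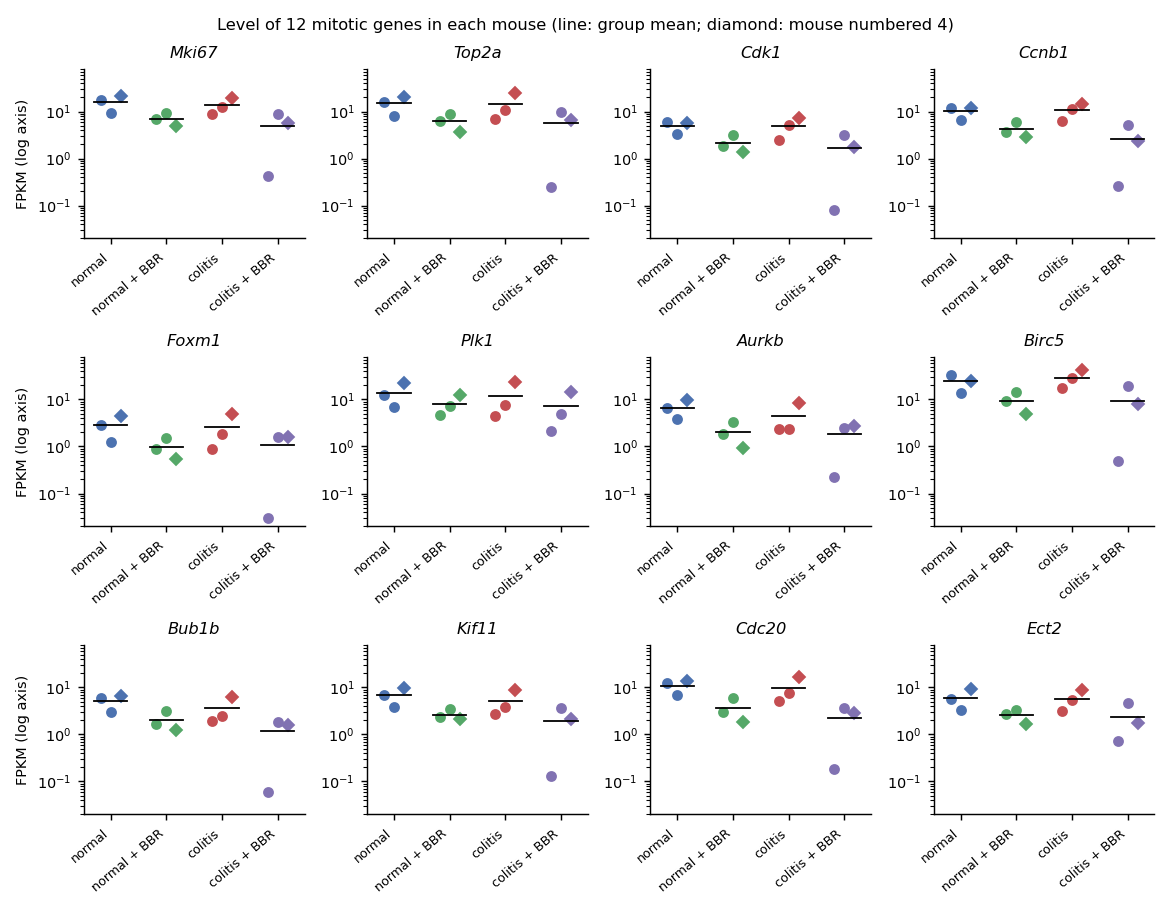
FPKM on a log axis of 12 genes in each mouse, by group, with a line at the group mean and diamonds for the mice numbered 4. Colitis mouse 2 receiving BBR is the lowest point in all 12 panels, from 0.03 FPKM for Foxm1 to 2.18 FPKM for Plk1.

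The mitotic kinases include the gene least like the others. Plk1, the Polo-like kinase of centrosomes, kinetochores and cytokinesis, was at 12.4, 7.03 and 22.4 FPKM in normal mice, 4.59, 7.11 and 12.3 with BBR, 4.44, 7.58 and 23.2 in colitis mice, with 2.18, 4.92 and 14.35 in colitis mice receiving BBR. The mouse numbered 4 was highest in each group for Plk1, and its groups overlapped in both comparisons, with log2 fold changes of -0.76 ± 0.73 (SE) and -0.77 ± 0.73, the latter -0.13 without mouse 2. Aurka, the Aurora kinase of the spindle poles, had -1.25 ± 0.57 (SE) in normal mice and -1.65 ± 0.57 in colitis mice, the latter -0.99 without mouse 2. Nek2, a kinase of centrosome separation, had -1.25 and -2.30 (-1.12 without mouse 2), and Pbk, a kinase of dividing cells, had -1.27 in both comparisons. Pbk in colitis mice lay at -0.15 without mouse 2.

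The chromosomal passenger complex corrects the attachment of chromosomes to the spindle and later acts at the cleavage site. Aurkb, its kinase, was at 6.55, 3.90 and 9.55 FPKM in normal mice, 1.83, 3.25 and 0.92 with BBR, 2.33, 2.30 and 8.40 in colitis mice, with 0.23, 2.5 and 2.79 in colitis mice receiving BBR. Normal mice with and without BBR did not overlap for Aurkb (log2 fold change -1.76 ± 0.81 SE), while colitis mice 1 and 2 lay below colitis mice 3 and 4 receiving BBR (-1.44 ± 0.81, and -0.42 without mouse 2). Birc5, the survivin subunit, was at 33.7, 13.7 and 24.9 FPKM in normal mice, 9.06, 14.1 and 4.92 with BBR, 17.7, 28.0 and 41.4 in colitis mice, with 0.50, 19.3 and 8.01 in colitis mice receiving BBR. Both pairs of groups overlapped in 1 mouse, with log2 fold changes of -1.39 ± 0.98 (SE) in normal mice and -2.59 ± 0.98 in colitis mice, the latter -1.13 without mouse 2. Cdca8, the borealin subunit, had -1.06 and -1.84, the latter -1.12 without mouse 2.

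Spindle checkpoint genes hold back anaphase until every kinetochore is attached. Bub1b, which encodes the checkpoint protein BubR1, was at 5.82, 3.03 and 6.49 FPKM in normal mice, 1.68, 3.15 and 1.26 with BBR, 1.89, 2.52 and 6.31 in colitis mice, with 0.06, 1.81 and 1.61 in colitis mice receiving BBR. Colitis mice with and without BBR did not overlap for Bub1b (log2 fold change -2.0 ± 0.83 SE, and -0.83 without mouse 2), while normal mouse 3 lay just below normal mouse 3 receiving BBR (-1.32 ± 0.83). The kinases Bub1 and Ttk and the Cdc20 inhibitor Mad2l1 had log2 fold changes of -0.78 to -1.47 in normal mice and of -1.69 to -1.82 in colitis mice, the latter -0.76 to -0.96 without mouse 2. In colitis mice all 4 checkpoint genes reached an unadjusted p up to 0.05, against 5.2% of tested genes, and 0 did without mouse 2, against 2.46%. In normal mice 0 did, against 0.842%, and 3 did once colitis mouse 2 receiving BBR was left out of the shared spread, against 1.46%.

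Centromere and kinetochore genes build the site at which chromosomes meet microtubules. Cenpa, the histone H3 variant of centromeres, had log2 fold changes of -1.47 ± 0.80 (SE) in normal mice and -2.5 ± 0.80 in colitis mice, the latter -1.35 without mouse 2. Ndc80, Nuf2 and Spc25, subunits of the Ndc80 complex that binds microtubules, had -1.43, -1.32 and -0.63 in normal mice and -1.90, -1.54 and -1.47 in colitis mice, the latter -0.75, -0.33 and -0.85 without mouse 2. On the log2 scale Spc25 had a narrower range over the 12 mice than the other 39 genes, from 1.69 to 12.7 FPKM, and its colitis groups did not overlap. Cenpe, a kinetochore motor, and Cenpf, a kinetochore protein, had -1.09 and -0.93 in normal mice and -1.78 and -1.64 in colitis mice, the latter -0.84 and -0.86 without mouse 2.

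Spindle motors and microtubule binders shape the spindle. Kif11, the kinesin that pushes the spindle poles apart, was at 6.76, 3.82 and 9.93 FPKM in normal mice, 2.33, 3.47 and 2.08 with BBR, 2.78, 3.88 and 8.90 in colitis mice, with 0.13, 3.62 and 2.17 in colitis mice receiving BBR. Tpx2, which nucleates microtubules and activates Aurora A, was at 9.72, 5.47 and 12.5 FPKM in normal mice, 3.39, 4.46 and 1.71 with BBR, 4.71, 8.19 and 12.9 in colitis mice, with 0.33, 4.90 and 2.86 in colitis mice receiving BBR. For both genes normal mice with and without BBR did not overlap, and colitis mouse 1 lay below colitis mouse 3 receiving BBR. Their log2 fold changes were -1.28 ± 0.85 (SE) and -1.53 ± 0.77 in normal mice, and -1.91 ± 0.85 and -2.12 ± 0.77 in colitis mice, the latter -0.69 and -1.06 without mouse 2. The microtubule depolymerase Kif2c, the chromosome-bound motor Kif4, and Nusap1, Hmmr and Aspm, which bind or organise spindle microtubules, had log2 fold changes of -0.94 to -1.39 in normal mice and -1.52 to -2.26 in colitis mice, the latter -0.69 to -1.495 without mouse 2. In colitis mice all 7 genes of this role reached an unadjusted p up to 0.05, against 5.2% of tested genes, and Kif4 alone did without mouse 2, against 2.46%.

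The anaphase machinery destroys the proteins that hold sister chromatids together. Cdc20, the activator of the anaphase-promoting complex, was at 12.35, 6.88 and 13.6 FPKM in normal mice, 3.01, 5.90 and 1.87 with BBR, 5.05, 7.47 and 16.85 in colitis mice, with 0.18, 3.68 and 2.90 in colitis mice receiving BBR. Neither pair of groups overlapped for Cdc20, with log2 fold changes of -1.67 ± 0.85 (SE) in normal mice and -2.57 ± 0.85 in colitis mice, the latter -1.37 without mouse 2. Ube2c, the ubiquitin-conjugating enzyme of that complex, was at 59.9, 24.6 and 51.4 FPKM in normal mice, 25.1, 33.15 and 9.72 with BBR, 19.9, 33.0 and 67.9 in colitis mice, with 1.02, 21.6 and 13.5 in colitis mice receiving BBR. Ube2c had the highest mean FPKM of the 40 genes, and its groups overlapped in both comparisons (-1.07 ± 0.93 SE and -2.36 ± 0.93, the latter -1.05 without mouse 2). Espl1, the protease separase, was the lowest of the 40 by mean FPKM, at 1.11, 0.65 and 1.70 FPKM in normal mice, 0.28, 0.49 and 0.24 with BBR, 0.28, 0.40 and 1.38 in colitis mice, with 0.03, 0.44 and 0.47 in colitis mice receiving BBR. Espl1 did not overlap between normal mice with and without BBR (-1.47 ± 0.66 SE), and lay at -0.94 ± 0.66 in colitis mice, or -0.24 without mouse 2.

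Cytokinesis genes divide the cell after anaphase. Ect2, the activator of RhoA at the cleavage furrow, was at 5.80, 3.34 and 9.09 FPKM in normal mice, 2.68, 3.24 and 1.67 with BBR, 3.19, 5.44 and 8.60 in colitis mice, with 0.73, 4.66 and 1.72 in colitis mice receiving BBR. Normal mice with and without BBR did not overlap for Ect2, by 3.24 against 3.34 FPKM, and its log2 fold changes were -1.17 ± 0.60 (SE) in normal and -1.49 ± 0.60 in colitis mice, the latter -0.88 without mouse 2. Kif23, a motor of the central spindle, was at 6.86, 3.96 and 9.32 FPKM in normal mice, 3.26, 3.59 and 2.64 with BBR, 5.59, 8.04 and 13.1 in colitis mice, with 0.33, 4.92 and 3.02 in colitis mice receiving BBR. Neither pair of groups overlapped for Kif23, with log2 fold changes of -0.99 ± 0.73 (SE) and -2.17 ± 0.73, the latter -1.10 without mouse 2. The central spindle motor Kif20a, the microtubule bundler Prc1 and the furrow scaffold Anln had log2 fold changes of -1.39, -1.36 and -1.04 in normal mice and -1.86, -2.11 and -2.32 in colitis mice, the latter -1.06, -0.75 and -1.14 without mouse 2. In colitis mice all 5 genes reached an unadjusted p up to 0.05, against 5.2% of tested genes, and Kif20a and Kif23 did without mouse 2, against 2.46%.

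Colitis by itself gave no common direction. Of the 40 genes, 31 had a lower and 9 a higher mean log2 level in colitis mice than in normal mice, and their median log2 fold change was -0.20, where 73.7% of all tested genes were lower with a median of -0.32. The direction of the 40 turned with the scaling: 27 were higher once each mouse was centred on its own median over the tested genes (median 0.14), where 48.7% of all tested genes were lower, and 27 under quantile normalization (median 0.10), where 54.4% were lower. None passed the adjusted limit in limma (lowest adjusted p = 0.439), against 1.08% of tested genes, none reached an unadjusted p up to 0.05, against 15.9% of tested genes lower and 5.56% higher, and none had groups that did not overlap, against 22.2% of tested genes lower and 7.1% higher. Espl1 (-0.85 ± 0.66 SE), Aspm (-0.81 ± 0.69) and Aurkb (-0.79 ± 0.81) had the lowest log2 fold changes. Kif4 (0.43 ± 0.62 SE), Kif23 (0.40 ± 0.73) and Birc5 (0.28 ± 0.98) had the highest, and Birc5 turned to -0.08 without normal mouse 3 and to -0.02 without colitis mouse 4. The direction also turned with the mouse number as a block, where 32 of the 40 were higher and the median was 0.48. It moved with single mice as well: without colitis mouse 1, 13 of the 40 were lower and the median was 0.16. Without normal mouse 3 or colitis mouse 4, 37 were lower. In the block, number 2 was held only by colitis mouse 2 and colitis mouse 2 receiving BBR. Against the normal mouse of the same number, all 40 genes were lower in colitis mouse 1 (median -1.18). In colitis mouse 4, 17 were lower and 23 higher (median 0.10).

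Aspm, a spindle pole protein, was at 1.95, 0.85 and 2.62 FPKM in normal mice, 0.75, 1.08 and 0.47 with BBR, 0.52, 0.80 and 1.66 in colitis mice, with 0.01, 0.62 and 0.43 in colitis mice receiving BBR. Kif4 was at 3.42, 1.83 and 3.75 FPKM in normal mice, 1.63, 1.72 and 0.70 with BBR, 2.95, 3.23 and 6.14 in colitis mice, with 0.19, 1.72 and 1.00 in colitis mice receiving BBR. Normal and colitis mice overlapped for both genes.

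Between colitis mice and normal mice that both received BBR, all 40 genes had a lower mean log2 level in colitis, with a median of -0.94, against 80.1% lower and a median of -0.40 over all tested genes. That direction rested on colitis mouse 2: without it 28 genes were higher and the median was 0.10, with 75.5% of all tested genes lower. None passed the adjusted limit in limma (lowest adjusted p = 0.225, against 0.0392% of tested genes called), and Ccnb2 alone reached an unadjusted p up to 0.05 (0.0252), against 17.3% of tested genes in this direction. Ccnb2 was also the only 1 of the 40 without overlap, against 18% of tested genes lower, and had a log2 fold change of -2.16 ± 0.84 (SE), or -0.94 without mouse 2. Nusap1, which bundles microtubules near chromosomes, was at 4.57, 6.22 and 3.11 FPKM in normal mice receiving BBR and at 0.23, 3.67 and 2.81 in colitis mice receiving BBR. Its log2 fold change was -1.57 ± 0.79 (SE), next to -1.55 ± 0.93 for Ube2c, or -0.46 and -0.235 without mouse 2. Without colitis mouse 3 receiving BBR 21 genes reached an unadjusted p up to 0.05 (8.1% of tested genes), and without mouse 4 of that group the lowest adjusted p of the 40 in limma was 0.0561.

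The difference between the BBR effect in colitis mice and that in normal mice was tested as an interaction. It was below 0 for 37 of the 40 genes, against 58.9% of all tested genes, with a median of -0.76 on the log2 scale (all tested genes -0.08). None of the 40 passed the adjusted limit (adjusted p = 1 for each, 0% of tested genes called) and none reached an unadjusted p up to 0.05, against 1.72% of tested genes in this direction. Ccnb2 had the lowest value, -1.995 ± 1.193 (SE), and Espl1 the highest, 0.54 ± 0.93. Without colitis mouse 2 receiving BBR, 31 of the 40 were above 0 and the median was 0.30, with 49.3% of all tested genes below 0. Without colitis mouse 3 receiving BBR 3 genes reached an unadjusted p up to 0.05, against 3.73% of tested genes in that fit.

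The 40 genes moved closely with each other over the 12 mice, with Plk1 set apart. For each gene, the gap between its log2 level and the mean of the other 39 was taken in each mouse, and the SD of this gap over the 12 mice had a median of 0.326. It was lowest for Bub1, at 0.122, and highest for Plk1, at 0.906. Plk1 lay a mean of 1.99 above the other genes in the mice numbered 4 and 0.92 above them in the mice numbered 1 to 3. The ratio of colitis mouse 2 receiving BBR to the colitis mean had a median of 2.71% over the 40 genes. Aspm had the lowest ratio, 1.01%, and Plk1 the highest, 18.6%, followed by Spc25 at 14.6%, Ect2 at 12.7%, Aurka at 10.65% and Mad2l1 at 10.1%. Compared with the next lowest mouse, that mouse was between 2.04 times (Plk1) and 43.0 times (Aspm) lower. The Aspm value there was under the worth of 3 reads.

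Against the mean log2 level of colitis mice, all 40 genes were lower in colitis mouse 2 receiving BBR (median -4.19), 38 in mouse 3 (median -0.55) and 39 in mouse 4 (median -1.31). The exceptions were Nuf2 (0.23) and Pbk (0.11) in mouse 3 and Plk1 (0.63) in mouse 4. Against the mean of normal mice, all 40 genes were lower in each of normal mice 1, 3 and 4 receiving BBR, with medians of -1.31, -0.70 and -1.76. Set against the normal mouse of the same number, 40, 18 and 40 of them were lower, with medians of -1.59, 0.011 and -2.25. In the pair numbered 3, 21 were higher. All 40 genes were lower in colitis mice 2 and 4 receiving BBR than in the colitis mouse of the same number. The medians were -4.07 and -2.00, and mouse 3 of that group had no colitis mouse of its number. Colitis mice spread to both sides of the normal mean: 38 genes were lower in mouse 1, 31 in mouse 2 and 1 in mouse 4.

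The list of 82 other mitosis genes showed smaller differences of the same direction. In colitis mice receiving BBR 77 of the 82 were lower than in colitis mice (median -1.23), 37 with an unadjusted p up to 0.05, against 5.2% of tested genes, and none past the adjusted limit. Without mouse 2, 76 were lower (median -0.52) and 3 reached that p, against 2.46% of tested genes, and with the mouse number as a block 52 did, against 8.98%. In normal mice receiving BBR 76 were lower (median -0.91) and 13 reached an unadjusted p up to 0.05, against 0.842% of tested genes, or 24 with the block, against 1.59%. Cenpw, a centromere protein listed at 0 in mouse 2, lay at -2.77 ± 0.81 (SE) and Cdc25c, a phosphatase that activates Cdk1, at -2.36 ± 0.60 in colitis mice, or at -1.77 and -1.62 without mouse 2. Wee1, the kinase that restrains Cdk1, and Pttg1, the separase inhibitor securin, were the highest there at 0.11 ± 0.35 and 0.37 ± 0.35, or at 0.23 and -0.04 without mouse 2. In normal mice Kifc1, a spindle motor, lay at -1.79 ± 0.71 (SE) and Oip5, a centromere protein, at -1.78 ± 0.68.

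DNA replication and S phase genes, which act earlier in the cell cycle, also lay lower with BBR. In colitis mice 41 of 41 were lower with a median of -0.70, which was -0.14 with 31 lower once mouse 2 was left out, and 6 reached an unadjusted p up to 0.05, against 5.2% of tested genes (1 without mouse 2, against 2.46%, and 16 with the mouse number as a block, against 8.98%). In normal mice 40 of 41 were lower with a median of -0.73, where 54% of tested genes were lower, and 5 reached an unadjusted p up to 0.05, against 0.842% (10 with the block, against 1.59%). Prim2, a primase subunit, lay at -1.71 ± 0.53 (SE) and Gins2, a helicase subunit, at -1.61 ± 0.57 in colitis mice, or at -1.035 and -0.84 without mouse 2, and Uhrf1, a factor of DNA methylation upkeep, at -1.55 ± 0.78 and Rrm2, a ribonucleotide reductase subunit, at -1.43 ± 0.65 in normal mice. Normal mouse 3, in which all 40 mitosis genes were the lowest of its group, had a mean S phase level of 2.37 on the log2 scale, next to 2.41 and 2.36 in normal mice 1 and 4.

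The 21 genes of the MuvB, DREAM and E2F regulators, which act on the promoters described above, had medians nearer to 0. They lay at -0.17 in colitis mice with 16 lower (-0.09 with 15 lower without mouse 2), none with an unadjusted p up to 0.05 though 3 with the block, against 8.98% of tested genes, and at -0.08 in normal mice with 15 lower. E2f8 and E2f2, E2F factors that are themselves expressed with the cell cycle, were the lowest in both: -1.49 ± 0.97 (SE) and -1.06 ± 0.62 in colitis mice, which were -0.20 and -0.37 without mouse 2, and -1.86 ± 0.97 and -1.94 ± 0.62 in normal mice. E2f2 in normal mice had an unadjusted p of 0.00908 and an adjusted p of 1 in limma. Lin52, a subunit of the MuvB core, lay at 0.40 ± 0.24 (SE) in colitis mice (0.30 without mouse 2) and 0.21 ± 0.24 in normal mice with BBR, and at -0.998 ± 0.237 in colitis against normal mice (adjusted p = 0.0647).

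**Figure D5:**
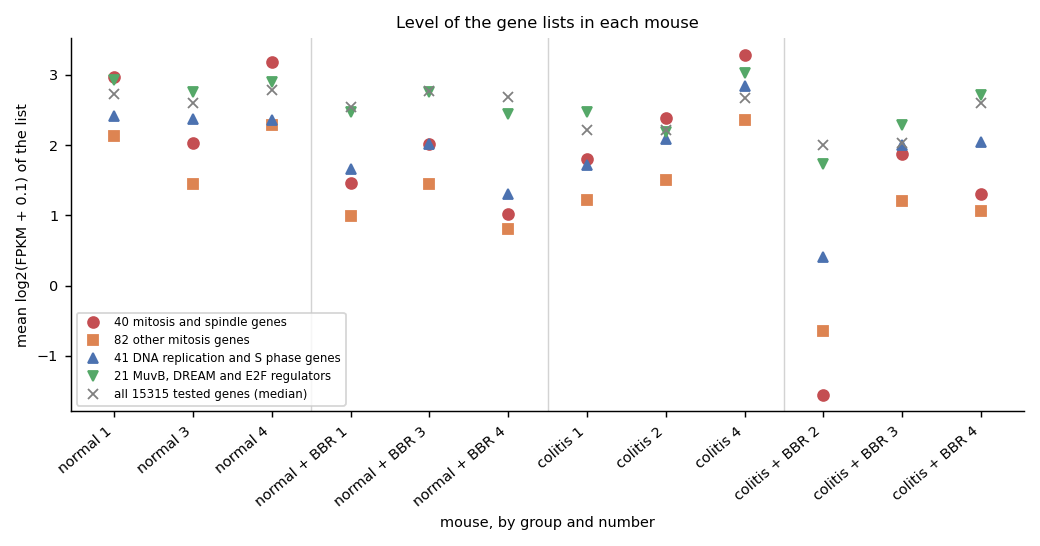
Mean log2(FPKM + 0.1) of 4 gene lists and the median of all 15315 tested genes in each mouse, by group. In colitis mouse 2 receiving BBR the 40 mitosis and spindle genes average -1.55 and the S phase genes 0.41, while the median of all tested genes, 2.0, is next to 2.04 in mouse 3 of that group.

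Markers of the cells in these samples moved as follows beside the mitosis genes. Pan-epithelial markers differed little with BBR, with a median log2 fold change over 8 genes of -0.16 in normal and -0.06 in colitis mice, the latter -0.006 without mouse 2. The 10 markers of crypt stem cells and Wnt targets summed to 38.98 to 57.15 FPKM in normal mice and 35.28 to 45.91 FPKM with BBR, with a median of -0.37 and 8 of 10 lower. They summed to 11.75 to 42.89 FPKM in colitis mice and 15.79 to 52.69 FPKM in colitis mice receiving BBR. The median was 0.10 with 5 of 10 lower, or 0.48 with 0 lower without mouse 2. In both groups mouse 4 had the highest sum, and leaving out mouse 2 gives mouse 4 more weight among colitis mice receiving BBR. Mouse 2 of that group, at 15.79 FPKM, was close to mouse 3 at 18.25 FPKM in these markers, unlike in the mitosis genes. Mature colonocyte markers were higher in 6 of 8 and goblet cell markers in 6 of 7 in colitis mice with BBR (medians 0.57 and 0.60, or 0.135 and 0.68 without mouse 2), and in normal mice their medians were 0.08 and -0.10. Mouse 2, the lowest in all 40 mitosis genes, had the highest mature colonocyte sum of the 12 mice. It was 29710 FPKM, against 5849 to 21570 FPKM in the others. Of these markers Slc26a3, Car1, Car4 and Aqp8 were highest of the 12 mice there, and Krt20, Ceacam1, Guca2a and Slc9a3 were not. Guca2a, at 632 FPKM, lay below all normal mice. In the mean log2 level of the 8 markers mouse 2 was also highest, at 10.64 next to 10.49 in normal mouse 3.

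Immune cells can divide as well. B cell and germinal centre markers summed to 5.57, 4.74 and 25.82 FPKM in normal mice, 4.65, 20.04 and 5.06 with BBR, 3.16, 9.07 and 3.01 in colitis mice, with 2.2, 4.14 and 10.68 in colitis mice receiving BBR. The mouse highest in B cell markers was also highest in the sum of the mitosis genes in both groups of normal mice, and was not in either group of colitis mice. Granulocyte markers summed to 519.4, 513.7 and 72.6 FPKM in colitis mice, with 232.2, 235.8 and 3.60 in colitis mice receiving BBR, against at most 3.69 FPKM in mice without colitis. Macrophage and monocyte markers summed to 242.7 to 859.8 FPKM in colitis mice and 132.3 to 227.0 FPKM in colitis mice receiving BBR, with 8 of 8 lower. Fibroblast markers were lower in 7 of 7 and T cell markers in 6 of 6 in colitis mice with BBR (medians -0.998 and -0.52, or -0.62 and -0.57 without mouse 2), and their medians in normal mice were 0.12 and 0.06. Smooth muscle markers summed to 88.9, 680.3 and 709.6 FPKM in colitis mice and to 517.5, 498.7 and 3601 FPKM in colitis mice receiving BBR. Mouse 4 was highest in each of the 4 groups, and colitis mice 2 and 3 receiving BBR lay below colitis mice 2 and 4. By mean log2 level 9 of 9 were higher with BBR in normal as in colitis mice (medians 0.59 and 1.498, the latter 1.906 without mouse 2). The part of these cells in the differences of the mitosis genes was not tested.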

How the data were processed

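Rectal RNA of 12 mice, 3 a group by the labels, was depleted of ribosomal RNA and sequenced by the authors on a BGISEQ-500 (the labels name another kit and sequencer). Reads were filtered with SOAPnuke, aligned with Bowtie2 2.2.5 and quantified with RSEM 1.2.12, with build mm9 in the submitters' processing notes. The deposited values were read as FPKM from their range, since the unit is not named and TPM cannot be told apart. Of 17734 genes, 24 at 0 in every mouse, the 15315 with a mean of at least 0.1 were fitted as log2(FPKM + 0.1) with limma 3.58.1 in R 4.3.3 (1 mean per group, empirical Bayes with a trend), adjusted by Benjamini-Hochberg over all tested genes. Fold changes on this scale understate those of low genes. Means, steps and motifs were computed in Python 3.11.15 with pandas 2.3.3 and NumPy 2.4.6. The fit was tested on simulated data.

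The 40 genes and the other lists were chosen with earlier results of these data known; 3 listed genes were matched by older symbols. All 40 could be named; values per mouse were given for 12 chosen genes and, in each comparison, for the 3 largest rises and falls, and from other lists the 2 largest. Alternatives were other pseudocounts, filters, scalings, blocks, groups fitted alone, no trend and leaving out each mouse.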

Additional observations from a re-analysis of the deposited data

How the results depend on the processing

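No gene of the 40 passed the adjusted limit of 0.05 in any comparison under any alternative run. With BBR all 40 genes stayed lower in every alternative, in normal mice (median -1.59 to -0.79) and in colitis mice (median -2.64 to -0.87, the latter without colitis mouse 2 receiving BBR). The median of colitis against normal mice ran from -0.55 to 0.48. The log2 fold change of Birc5 in colitis against normal mice, 0.28, reversed to -0.08 without normal mouse 3 and -0.021 without colitis mouse 4, within a range of -0.08 to 0.59 when a mouse was left out. The cause of these moves was not tested. Depth is known only from steps between low values, and 10 of the 40 genes in colitis mouse 2 receiving BBR were too low to measure a fold well.

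For colitis against normal mice, 9 of the 40 genes were higher, against 27 under quantile normalization, 27 when centred on the median and 32 with the replicate block, and 3 to 27 when a mouse was left out. For colitis against normal mice that received BBR the 0 higher became 6 under quantile normalization, 4 when centred and 1 with the replicate block, and 0 to 28 when a mouse was left out (28 without colitis mouse 2). For the interaction the 3 above 0 became 9 at a pseudocount of 1 and 1 in the mice numbered 1 to 3 alone, and 1 to 31 when a mouse was left out (5, 7 and 8 without normal mouse 3 receiving BBR, normal mouse 3 and colitis mouse 4).

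The number of all tested genes past the adjusted limit moved more. In colitis against normal mice it was 165, and 91 at a pseudocount of 0.01, 71 with a filter at a mean of 1, 258 under quantile normalization (73 of them lower, against 65 of 165), 488 with the compared groups alone, 734 with the replicate block, 1412 with the mice numbered 4 as a block and 804 in the mice numbered 1 to 3 alone. Leaving out a mouse of the compared groups gave 11 to 77, or 211 without colitis mouse 4, and leaving out colitis mouse 2 receiving BBR gave 185. In colitis mice with against without BBR the 0 became 4 and 2 at pseudocounts of 1 and 0.01, 1 with no filter, 3 with no trend, 1 with the replicate block and 2 with the mice numbered 4 as a block, and 0 to 58 when a mouse was left out, 58 without colitis mouse 3 receiving BBR. In normal mice with against without BBR the 0 became 1 with the compared groups alone. In colitis against normal mice that received BBR the 6 became 2 with no filter, 3 when centred, 0 with the compared groups alone, 12 with no trend, 268 with the mice numbered 4 as a block and 2302 in the mice numbered 1 to 3 alone, and 0 to 2255 when a mouse was left out, 2255 without colitis mouse 4 receiving BBR.

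The labels do not say what the replicate numbers share, and the numbers were not taken to pair the mice over the whole study. Deviations from the group means correlated at a mean of 0.34 between mice of the same number (0.497 where both were numbered 4 and 0.205 for the others), and at -0.103 between different numbers. The lowest value was 0.078, for number 2 in colitis mice, under the 0.1 required of every pair. In normal mice with and without BBR the pairs were at 0.29, 0.109 and 0.657, all over it, and the blocked count stands beside that result. With the number as a block, the median of the 40 genes was -2.17 in colitis mice and -1.25 in normal mice (lowest adjusted p in limma 0.178 and 1), 0.48 in colitis against normal mice, -0.51 between the groups receiving BBR and -0.94 for the interaction.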
